A study of Homo sapiens with 8 samples.

Results

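Poly(A) peaks of 3 genes were examined: TARDBP, which encodes the RNA-binding protein TDP-43, and STMN2 and UNC13A, transcripts of which take up cryptic exons when TDP-43 is lost. Peaks were taken when they overlapped the annotated span of a gene or the 4 kb after its 3′ end. This gave 42 of the 153624 peaks in the list, 10 for TARDBP, 13 for STMN2 and 19 for UNC13A, which are 3 of 19389 annotated protein-coding genes. The peaks came from poly(A) 3′-sequencing of Kelly WT cells, an established MYCN-amplified line of human neuroblastoma, and of Kelly E9R cells, a derivative of the same line whose CDK12 carries a point mutation at the cysteine to which THZ531 binds. Both lines received either DMSO, the solvent, or 400 nM THZ531, a covalent inhibitor of the kinases CDK12 and CDK13, for 6 h, with 2 samples in each of the 4 groups (8 samples), which the labels call biological duplicates. The labels give this dose, whereas the methods of the study name a different one for these cells. No perturbation of TDP-43 was part of the design.

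The 8 libraries were merged by the authors before peaks were called, and the list holds 0 columns of per-sample values. No value below has a replicate, the depth per library is unknown, and no comparison of THZ531 with DMSO, or of the WT with the E9R line, could be made. The list also gives no strand. A site used in 1 group and a site used in all 4 cannot be told apart, so the results describe which poly(A) sites were detected in the pool.

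TDP-43 binds UG-rich RNA and keeps cryptic exons and cryptic poly(A) sites silent. It also controls its own level, since binding to the 3′ UTR of its own transcript changes which of several poly(A) sites there is used. STMN2 encodes stathmin-2, a protein that binds tubulin and is needed for axon growth and repair. The first intron of STMN2 holds a cryptic exon that ends at a poly(A) site of its own, which yields a short transcript without most of the coding sequence. UNC13A encodes a protein that primes synaptic vesicles for fusion. Its cryptic exon is a cassette spliced between the annotated exons that flank intron 20, and it has no poly(A) site of its own. A poly(A) signal is a hexamer, most often AATAAA or ATTAAA, that lies shortly before the cleavage site.

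The sequences at the peaks on which the results turn are shown in the sense of each gene (GRCh38, counted from 1). Capitals mark a poly(A) signal, out of the 12 hexamers of the study. None is shown for STMN2. The first 4 are 30 bases of the TARDBP 3′ UTR and of the sequence after it, on the forward strand at chr1:11024160-11024189, chr1:11024957-11024986, chr1:11025465-11025494 and chr1:11030506-11030535, and show which signal precedes each 3′ end.

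TARDBP peak 7: tcaAATAAActtatttgaaaagttgtctca
TARDBP peak 8: atcAATGAAgtcatcctttagacttgtaat
TARDBP peak 9: ataAATAAAatttttttttgacaccacagt
TARDBP peak 10: taaATTAAAccatttggaatacattgtgtg

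The next 3 come from intronic peaks and show which signal precedes the 3′ end, and the last is the signal at the annotated 3′ end of UNC13A. They lie at chr1:11014257-11014286 (forward strand) and, on the reverse strand, at chr19:17635516-17635545, chr19:17631716-17631745 and chr19:17601334-17601363.

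TARDBP peak 2: gtaAATAGAttcttctgaagtgcttcagtg
UNC13A peak 13: tacAATATAcaatattgtgtattgtgtatg
UNC13A peak 14: aaaAATAAAatgaatgagtgaataaatgcc
UNC13A peak 19: gacATTAAAaaaagaaaaaccacacacagc

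Each peak carries the authors' fold enrichment, which is the read pileup where it is highest divided by the background around it, with 1 added to each, and the −log10 q of that position. The summit pileup is the number of extended reads over the summit, recovered as a whole number from these values for 100% of peaks. It cannot be read as a transcript level: reads were extended to 100 bp, and the highest pileup in the list, 200, is what 1 read per start position on each of 2 strands would give. Only 16 peaks were above 100, and how duplicate reads were handled is not stated. Around the 3′ end of a peak, a motif means that 1 of the 12 hexamers lay in the 100 bp before it. A-rich means 6 A in a row, or 7 A of 10, in the 50 bp after it, where oligo(dT) can prime on A that the genome encodes. Peaks with a motif and without A-rich sequence are called clean below. A peak was removed when it lacked a motif and was followed by 25 A (up to 3 mismatches), which left 41 of the 42 peaks.

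STMN2 (ENSG00000104435.14, chr8:79611117-79666158, forward strand, 5 exons) held 13 peaks over 55.0 kb. The first intron contained 7 of them, intron 3 contained 1, exons 1, 4 and 5 contained 1 each, and 2 lay at annotated ends. No annotated gene on the other strand overlapped these peaks. The first intron spans 25.6 kb and makes up 48.2% of the intron sequence of the gene, against 7 of its 8 intronic peaks. The other 3 introns together span 27.6 kb.

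The strongest intronic peak of STMN2 was peak 4, at chr8:79616754-79617203 in the first intron, 5540 bp after exon 1. It had a summit pileup of 48, a fold enrichment of 15.2 over a background of 2.22 extensions per 100 bp, and a −log10 q of 42.2. The peak was 450 bp wide, whereas intronic peaks had a median width of 104 bp. Its summit lay 222 bp before its 3′ end. An AATAAA started 19 bp before the 3′ end, which is 203 bp after the summit, and an ATTAAA started 43 bp after the summit. No A-rich sequence followed on the gene strand. On the opposite strand an A-rich sequence followed the peak and a motif was present as well. GENCODE release 44 has no transcript end in this intron, and the nearest annotated end lay 47678 bp downstream. The coordinates of the known cryptic exon are not used here, so the position of the peak relative to it was not measured.

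Among 85721 retained intronic peaks, STMN2 peak 4 ranked 70th by −log10 q (0.0817%), and among 20027 first-intron peaks it ranked 14th. For genes with an end peak and an intron (11591 genes), a first-intron peak with a −log10 q at least as high was found in 12 genes (0.104%), STMN2 included, and an intronic peak that strong anywhere in the gene in 0.328%. A first-intron peak that strong, with AATAAA or ATTAAA and no A-rich sequence, was found in 4 genes (0.0345%). The other 3 were UNC5D, RNF165 and AGAP3, which are named here after their values were seen. When the signal also had to start 10 to 35 bp before the 3′ end, STMN2 peak 4 was 2nd of 1702 first-intron peaks and 9th of 9203 intronic peaks. In the set of 9203 the median pileup was 9 and the median −log10 q was 6.85. The signal position was made a condition after the data were seen, and peak 4 meets it. The AATAAA by which it does so started 203 bp after the summit whose −log10 q is ranked. These ranks are therefore a description only. Presence of any first-intron peak was common, in 43.2% of the genes, and a clean one was found in 14.2%. A first-intron peak was thus common, and one with a −log10 q this high was rare. This count takes no account of how strongly each gene was read. The ratio of the strongest intronic to the strongest end pileup of STMN2 was 0.738. Genes of like length with an intronic peak had a median ratio of 0.667, and 39.5% of them had one as high.

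**Figure D1:**
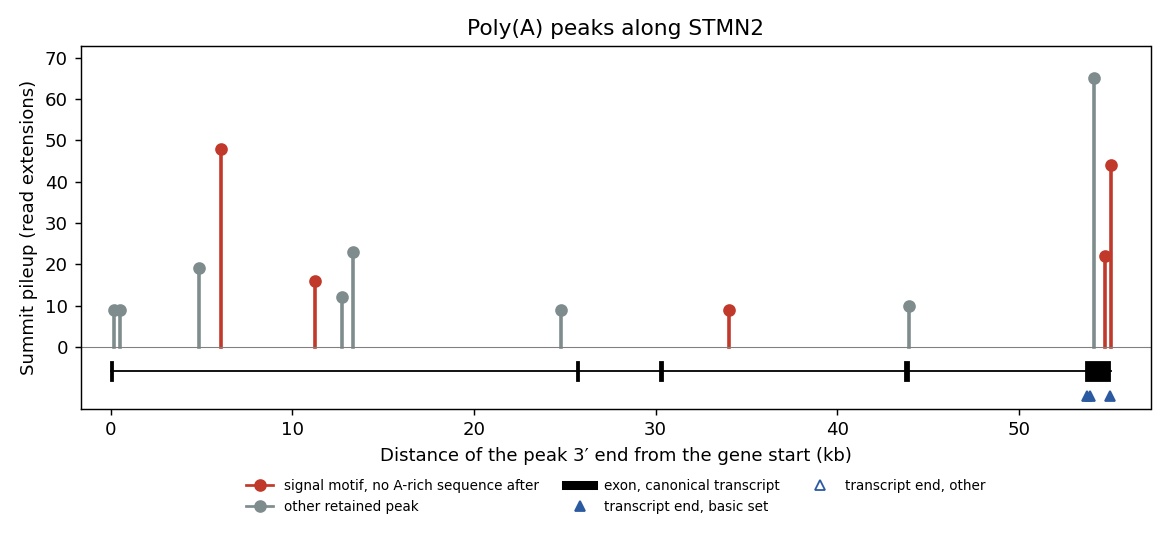
Summit pileup (vertical axis, read extensions) of the 13 STMN2 peaks against the distance of the peak 3′ end from the gene start (horizontal axis, kb), with exons as black boxes and annotated transcript ends as triangles; red stands for clean peaks. Peak 4 stands at 6.09 kb with a pileup of 48, between the 65 and 44 of the 2 end peaks.

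The other 6 first-intron peaks of STMN2 were lower. Peak 7, 13.1 kb after exon 1, had a pileup of 23 and a −log10 q of 18.1, with no motif and with A-rich sequence after it. Peak 3, 0.752 kb before peak 4, had a pileup of 19, and its AATAAA was also followed by A-rich sequence. Peak 5 was the other clean peak of the intron, with a pileup of 16, a −log10 q of 8.94 and an AATAAA starting 14 bp before its 3′ end. When A-rich sequence in the 50 bp before the 3′ end was counted too, peak 5 was not clean. Peaks 2, 6 and 8 had pileups of 9, 12 and 9 and were all followed by A-rich sequence. Of the 8 intronic peaks, 7 had a motif on the gene strand and 5 were followed by A-rich sequence. The opposite strand gave counts of 4 and 2. Over all intronic peaks with genes on 1 strand, 54.3% had a motif (35.2% on the other strand) and 78% were followed by A-rich sequence. A signal of AATAAA or ATTAAA starting 10 to 35 bp before the 3′ end was present at 5 of the 8 STMN2 peaks, at 1 of the 16 of UNC13A and at 0 of the 2 of TARDBP. Its share was 20% over all intronic peaks, 4.82% on their other strand and 57.7% over end peaks. With no A-rich sequence as well, it was present at 2, 1 and 0 of them, against 10.8%.

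The 3′ UTR of STMN2, 1284 bp in the last exon, held 3 peaks, the last of which ran past its end. Peak 11 (chr8:79664877-79665249) was the highest of the gene, with a pileup of 65, a fold enrichment of 21.9 and a −log10 q of 67.8. It was 373 bp wide and ended 242 bp past the nearest annotated end, and A-rich sequence followed it. Its summit lay 288 bp before its 3′ end, upstream of that annotated end. Peak 13 (chr8:79666043-79666181) ended 23 bp past the end of the canonical transcript, with a pileup of 44 and an AATAAA starting 25 bp before its 3′ end. Peak 12 lay between them with a pileup of 22 and an ATTAAA 24 bp before its 3′ end, 317 bp before the nearest annotated end. Peaks 12 and 13 were clean, but not when A-rich sequence in the 50 bp before the 3′ end was counted too. First-intron peak 4 made up 48 of the 179 extensions at these 4 summits, or 26.8% (95% Wilson interval 20.9 to 33.7, counting error only).

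The GU-rich sequence that TDP-43 binds was searched as TGTGTG, and as GTGTGA, on the gene strand. STMN2 peak 4 contained TGTGTG 3 times, starting 108, 98 and 90 bp before its summit, and GTGTGA once, 107 bp before the summit, where it overlaps the first TGTGTG. The other 12 STMN2 peaks contained neither, nor did any TARDBP peak. In UNC13A, TGTGTG lay inside peak 6, and GTGTGA inside peaks 7 and 14. TGTGTG was present inside 5.23% of intronic peaks and GTGTGA inside 4.13%. Among the 408 intronic peaks of at least 400 bp with genes on 1 strand the shares were 16.2% and 11.8%. A match is a description of the letters, and binding of TDP-43 was not measured. Within 250 bp of the 3′ end, TGTGTG occurred at 4 of the 41 retained peaks of the 3 genes (1 of TARDBP, 0 of STMN2, 3 of UNC13A), against 20.3% of intronic and 27.2% of end peaks. The repeats in STMN2 peak 4 lie farther than that from its 3′ end.

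**Figure D2:**
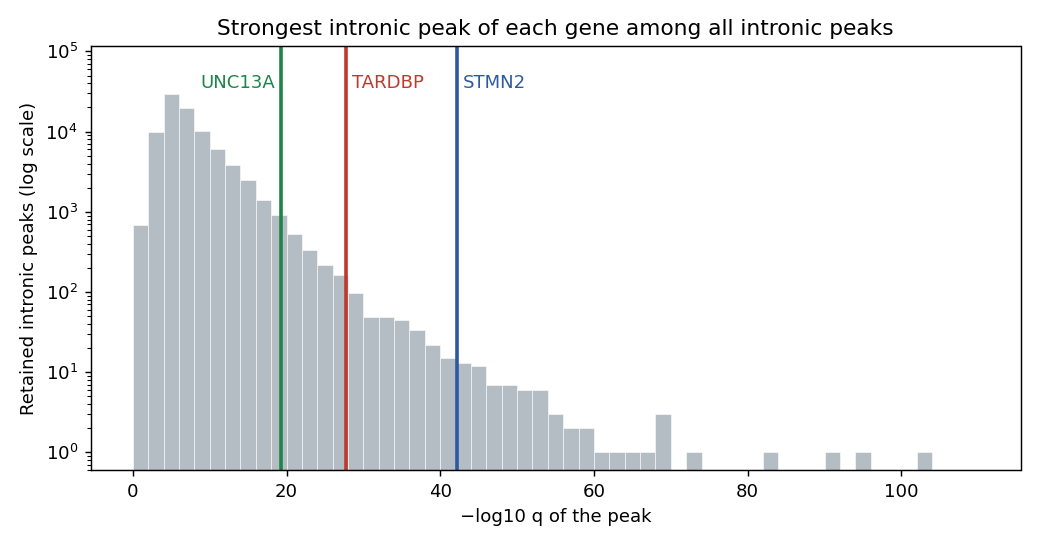
Histogram of the −log10 q (horizontal axis) of the 85721 retained intronic peaks (vertical axis, number of peaks, log scale), with vertical lines at the strongest intronic peak of each gene. UNC13A stands at 19.3, TARDBP at 27.7 and STMN2 at 42.2, all to the right of the median of 6.22.

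TARDBP (ENSG00000120948.19, chr1:11012344-11030528, forward strand, 6 exons) held 10 peaks over 18.2 kb. Peaks 6 to 10, which include the 3 end peaks, lay after the stop codon, and 5 lay upstream of it. A peak was counted as exonic when any base of it overlapped an exon. The annotation lists 38 transcripts with 30 different ends for the gene, of which 6 belong to basic transcripts. MASP2, a complement protease gene, runs on the opposite strand and overlaps 6 of the 10 peaks, so that these peaks cannot be assigned to TARDBP by position alone. Peak 5 (pileup 16) was 1 of them. It overlapped the first 82 bases of the last exon, with its summit on the last base of intron 5. It was assigned to a 3′ end of MASP2 when all genes were considered, and A-rich sequence follows it on the MASP2 strand. On the TARDBP strand an ATTAAA started 49 bp before its 3′ end, with no A-rich sequence after it. A motif was present on both strands. Its 3′ end lay 29 bp past a TARDBP transcript end outside the basic set. The same steps assigned peak 10, described below, to an intron of MASP2.

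The alternative ends of TARDBP lay in a 3′ UTR of 2838 bp in the last exon. Peak 6 (chr1:11022658-11022852) came 198 bp after the stop codon, with a pileup of 23 and no motif on the gene strand, 6 bp before the end of a transcript outside the basic set. A motif was present on the opposite strand. No A-rich sequence followed peak 6, but there was some when the 50 bp before its 3′ end were counted too. With the 3′ end placed by the summit, it had a motif and A-rich sequence followed. Peak 7 (chr1:11023932-11024190), 1.54 kb after the stop codon, was the highest of the gene, with a pileup of 33, a fold enrichment of 7.85 and a −log10 q of 18.6. It ended 7 bp past an annotated basic end, and its AATAAA started 28 bp before its 3′ end. A further AATAAA started 61 bp after its summit, which lay 228 bp before the 3′ end. With the 3′ end placed 50 bp after the summit instead, peak 7 had no motif and A-rich sequence followed, so it was not clean. Peak 8 (chr1:11024654-11024975), at 2.32 kb, had a pileup of 27 and the rarer signal AATGAA 16 bp before its 3′ end.

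Peak 9 (chr1:11025391-11025490) ended 2 bp before the end of the canonical transcript and was the weakest of the 3 end peaks, with a pileup of 14 and a −log10 q of 3.27. Its AATAAA starts 23 bp before the 3′ end, and A-rich sequence follows the peak on both strands. Peak 10 (chr1:11030429-11030528) ended on the last annotated base of the gene, 7.87 kb after the stop codon and inside an intron of MASP2. It had a pileup of 10 and an ATTAAA starting 20 bp before its 3′ end. No peak lay in the 4 kb beyond it. Thus the canonical end was not where the highest pileup of the last exon lay.

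Of the 107 extensions at the 5 summits after the stop codon, peak 7 held 30.8% (95% Wilson interval 22.9 to 40.1), peak 8 held 25.2% (18.0 to 34.2) and peak 6 held 21.5% (14.8 to 30.2). Peak 9 held 13.1% (7.96 to 20.8) and peak 10 held 9.35% (5.16 to 16.4). The intervals of peaks 6, 7 and 8 overlap, so their order was not resolved, and those of peaks 7 and 10 do not. They treat each extended read as an independent count, and how duplicate reads were handled is not stated. The gap between peaks 7 and 10 is therefore no measure of a difference in site use. The local background was 3.33 to 3.42 per 100 bp at peaks 5 to 9, against 1.05 to 1.34 at the other 5 peaks, and the fold enrichments of the former are lower for the same pileup. By the 3′ edge of the peak, the 3 end peaks all had a motif (86.5% of end peaks did) and 2 were clean (68.3%). Of these 2, peak 7 was not clean when the 3′ end was placed by the summit. Genes of like length had a median of 1 end peak. As many or more were found in 4.84% of the 578 other genes in that length bin, and in 12.2% of all genes with an end peak and an intron. The count of 3 for TARDBP depended on the end window: with 100 bp before and after an end it was 2. Peak 8 ended 517 bp before the nearest basic end. The shares of genes hold for the wider window only.

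**Figure D3:**
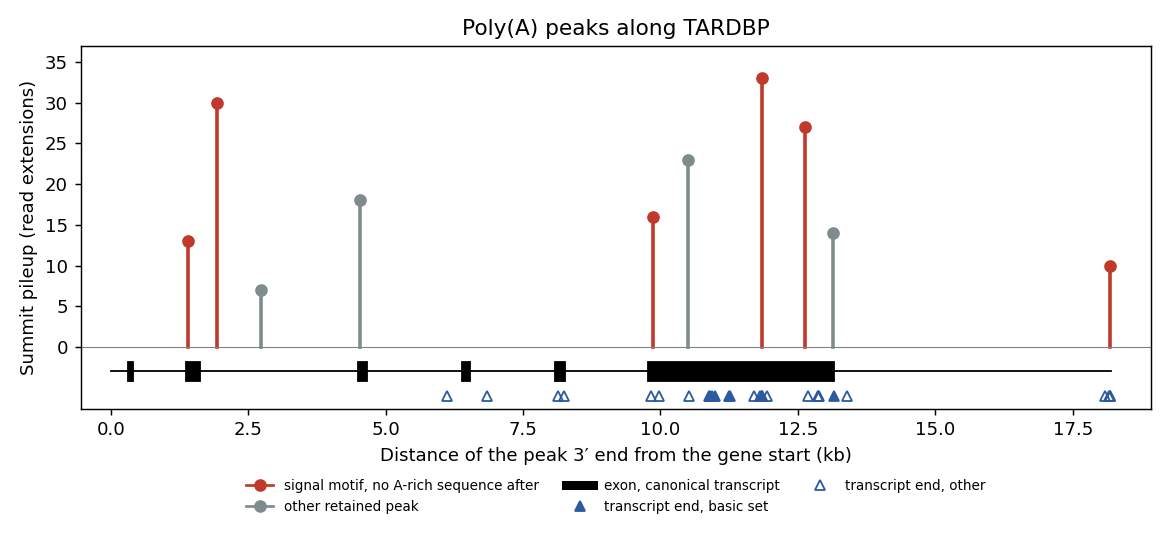
Summit pileup (vertical axis, read extensions) of the 10 TARDBP peaks against the distance of the peak 3′ end from the gene start (horizontal axis, kb), with exons as black boxes, ends of basic transcripts as filled and other ends as open triangles; red stands for clean peaks. Peaks 6 to 9, in the 3′ UTR of the last exon, have pileups of 23, 33, 27 and 14, peak 5 at the start of that exon has 16, and peak 2 in intron 2 reaches 30.

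The peak of TARDBP with the highest −log10 q was not at an end. Peak 2 (chr1:11014083-11014279) lay in intron 2, 118 bp after exon 2, with a pileup of 30, a fold enrichment of 13.9 and a −log10 q of 27.7, against 18.6 at peak 7. An intronic peak stronger than every end peak by −log10 q was found in 19.7% of genes with an end peak and an intron. An intronic peak at least as strong as TARDBP peak 2 was found in 2.41%. It ranked 412th of the 85721 intronic peaks (0.481%) and 209th of the 13837 clean ones. Its AATAAA started 92 bp before the 3′ end and 10 bp before the summit, and the nearest hexamer was AATAGA at 20 bp, so it had no AATAAA or ATTAAA at 10 to 35 bp. Neither strand had A-rich sequence after the peak. No annotated TARDBP end lay within 4 kb of it. MASP2 does not reach this intron.

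Peak 3 in the same intron was weak, with a pileup of 7, no motif and A-rich sequence after it. Peaks 1 and 4, with pileups of 13 and 18, counted as exonic by an overlap of 43 bp each with exons 2 and 3, but their summits lay in introns 1 and 2. By summit, 3 of the 4 exonic peaks (1, 4 and 5) would thus be intronic, whereas no exonic peak of STMN2 or UNC13A had its summit in an intron. No TARDBP peak touched intron 3 or 4. Peak 2 made up 30 of the 137 extensions at its own summit and the 5 summits after the stop codon, or 21.9% (95% Wilson interval 15.8 to 29.5).

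UNC13A (ENSG00000130477.16, chr19:17601336-17688365, reverse strand, 44 exons) held 19 peaks over 87.0 kb, of which 18 were retained. Introns held 16 of these, spread over 10 of 43 introns, the last exon held 1, and 1 lay at the annotated 3′ end. The end peak, peak 19 (chr19:17601327-17601543), was the highest of the gene, with a pileup of 30, a fold enrichment of 13.2 and a −log10 q of 26.5. It ended 9 bp past the annotated end with an ATTAAA starting 34 bp before its 3′ end, and A-rich sequence followed it. Peak 18 in the 3′ UTR, 959 bp before that end, had a pileup of 19.

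The intronic peaks of UNC13A had pileups of 5 to 21 with a median of 10.5, and −log10 q of 2.56 to 19.3 with a median of 8.34. Over all intronic peaks these medians were 8 and 6.22. The first intron held 3 retained peaks, all within its last 1.77 kb of 12.1 kb, with pileups of 20, 19 and 10. None was clean. Intron 20, between the exons that flank the known cryptic cassette, is 1.29 kb long and held no peak. Introns 19 and 21 beside it held 2 peaks and 1, with pileups of 7, 8 and 9, all followed by A-rich sequence. A list of this kind shows only sites above the threshold of the peak caller, and the lowest pileup in it is 3. A cassette exon without a poly(A) site would not give a peak in this assay.

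A-rich sequence followed 13 of the 16 UNC13A intronic peaks, a share close to the 78% of all intronic peaks, and 1 of 16 on the opposite strand. There was a motif at 9 of 16, and at 3 on the opposite strand. Alu elements, interspersed repeats of primates that end in an A-rich tail, were looked for by the letters CCAGCCTGG on the gene strand in the 100 bp before the 3′ end, a choice made after the sequences were seen. These letters, which are part of the Alu sequence, were present at 7 of the 16 peaks, at 2 of the 8 intronic peaks of STMN2 and at 0 of the 2 of TARDBP. They were present at 15.3% of all intronic peaks, at 1.65% of them on the other strand and at 2.49% of end peaks. Of the 7 UNC13A peaks, 6 were also followed by A-rich sequence. Peak 15 is an example (intron 38, pileup 17, −log10 q 19.0, no motif), and peak 14 is the exception.

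**Figure D4:**
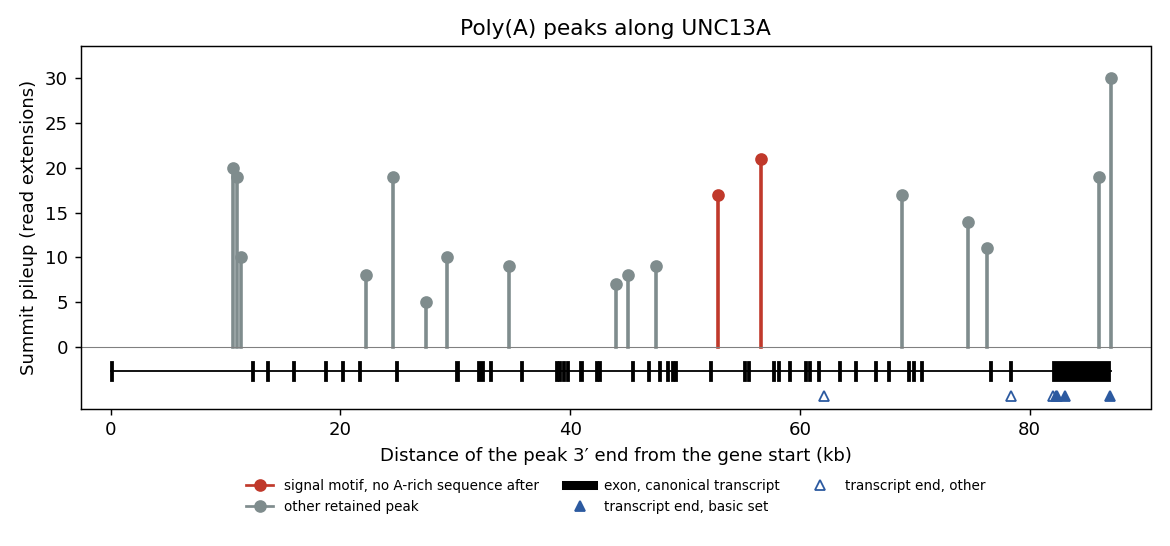
Summit pileup (vertical axis, read extensions) of the 18 retained UNC13A peaks against the distance of the peak 3′ end from the gene start (horizontal axis, kb), with exons as black boxes, ends of basic transcripts as filled and other ends as open triangles; red stands for clean peaks. Only peaks 13 and 14, at pileups of 17 and 21, are red, and the highest peak is the one at the annotated end with 30.

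The 2 clean intronic peaks of UNC13A were peak 13 in intron 26 and peak 14 in intron 28. Peak 13 (chr19:17635511-17635637) had a pileup of 17 and a −log10 q of 14.3, and its nearest hexamer was AATATA at 32 bp. Peak 14 (chr19:17631726-17632024) was the strongest intronic peak of the gene, with a pileup of 21, a fold enrichment of 11.8 and a −log10 q of 19.3. It had an AATAAA starting 17 bp before its 3′ end, but A-rich sequence also lay in its last 50 bases. When A-rich sequence before the end was counted too, only peak 13 was clean. Over all intronic peaks, 16.1% were clean, and 5.49% by this stricter count. Summed over introns, the pileup was 204 of 253 at all retained UNC13A peaks, or 80.6% (95% Wilson interval 75.3 to 85.0), most of it at peaks followed by A-rich sequence. Peak 16 also overlaps a gene on the opposite strand (ENSG00000269752), and a further gene, ENSG00000279300, overlaps the span of UNC13A.

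Intronic peaks rise in number with gene length, so each gene was set beside genes of like length, in 20 bins of the 11591 genes with an end peak and an intron. TARDBP had 2 intronic peaks, against a median of 1 in its bin, and 22.0% of the other genes there had as many or more. STMN2 had 8 against a median of 6 (32.7% had as many or more). UNC13A had 15 by the same steps, which assign peak 16 to the opposite gene, against a median of 8 (9.33% had as many or more). For clean peaks the order changed: TARDBP had 1 against a median of 0 (16.4% had as many or more), STMN2 had 3 against 1 (15.1%) and UNC13A had 2 against 1 (43.4%). At least 1 intronic peak was found in 74.9% of all these genes and at least 1 clean peak in 44.4%. The ratio of the strongest intronic to the strongest end pileup was 0.909 for TARDBP, 0.738 for STMN2 and 0.7 for UNC13A, and the bin medians were 0.526, 0.667 and 0.643. Ratios as high were found in 18.1%, 39.5% and 43.5% of the genes in those bins.

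**Figure D5:**
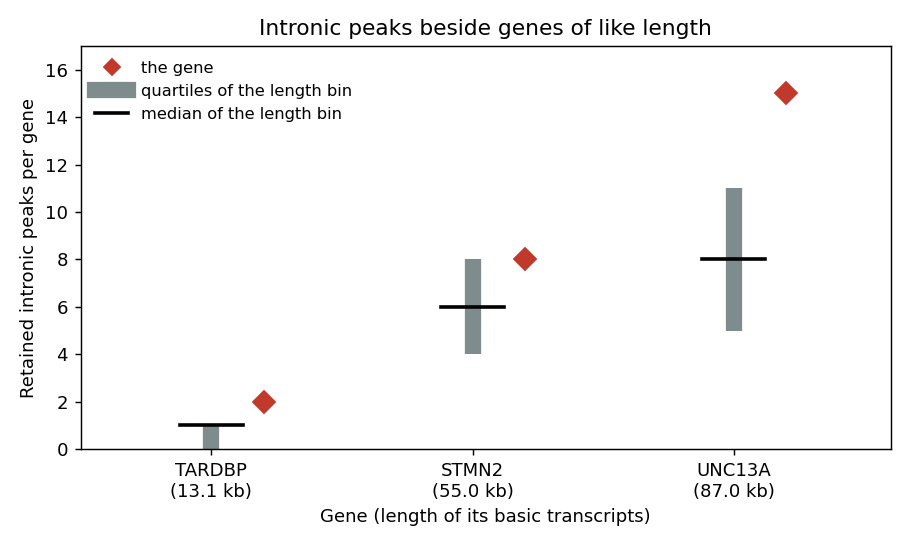
Number of retained intronic peaks per gene (vertical axis) for TARDBP, STMN2 and UNC13A (horizontal axis, with gene length), shown as diamonds beside the median (line) and quartiles (bar) of the other genes in the same length bin. TARDBP (2 against a median of 1) and UNC13A (15 against 8) stand above the upper quartile, and STMN2 (8 against 6) stands at it.

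Related genes were described by counts, which are read against the shares over all genes: 63.2% of protein-coding genes with an intron had an end peak, and of those 74.9% had an intronic peak and 44.4% a clean one. Of 17 other genes with cryptic exons under TDP-43 control, 15 had an end peak, 13 of these an intronic peak and 10 a clean one. KALRN, a guanine nucleotide exchange factor, had the most, with 8 clean among 94 intronic peaks over 693 kb. PFKP, the platelet isoform of phosphofructokinase, had 7 of 10 and CYFIP2, an actin regulator, 4 of 10. Of 6 genes with cryptic poly(A) sites under TDP-43 control (ELK1, SIX3, TLX1, ARHGAP32, CNPY3 and SYNJ2), all 6 had an end peak, 5 an intronic peak and 2 a clean one, near the shares over all genes for intronic and clean peaks. The clean ones were in SYNJ2, a phosphoinositide phosphatase gene, with 3, and in ARHGAP32, a GTPase-activating protein gene, with 1. The strongest in SYNJ2 (chr6:158030807-158030929) had a −log10 q of 26.1 and a pileup of 21, above the 14 of the highest of its 2 end peaks. The median number of intronic peaks was 5 for the cryptic exon genes and 1 for the cryptic poly(A) genes, at median lengths of 70.2 kb and 12.4 kb, against 3 and 33.3 kb over the 11591 genes.

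All 4 genes of the stathmin family had an end peak. STMN1 had a pileup of 69 at its end and no intronic peak, and STMN4 had 2 intronic peaks with a pileup of at most 10. STMN3 had 2, the higher with a pileup of 41 against 39 at its end, but neither was clean. STMN2 alone of the 4 had a clean intronic peak, 3 in all. In the UNC13 family, UNC13B had 18 intronic peaks of which 2 were clean, with a highest intronic pileup of 13. UNC13D had an end peak and no intronic peak, and UNC13C had no end peak and 1 intronic peak with a pileup of 5.

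Among 7 partners of UNC13A in vesicle priming and fusion, 5 had an end peak, 3 of these an intronic peak and 2 a clean one. These were SNAP25 with 2 and SYT1 with 1. The strongest clean peak of each was low, with pileups of 10 and 7 and −log10 q of 5.73 and 5.75. Among 8 RNA-binding proteins linked to amyotrophic lateral sclerosis and frontotemporal dementia, all 8 had an end peak, 6 an intronic peak and 4 a clean one, the last counts being near the 74.9% and 44.4% of all genes. They were ATXN2 with 3, EWSR1 with 2, and TARDBP and TIA1 with 1 each. TARDBP held the highest clean −log10 q of the 8, 27.7, against 17.4 in ATXN2.

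The cell type was checked by end peaks of marker genes. All 6 adrenergic neuroblastoma markers examined (HAND2, GATA3, ISL1, DBH, TH and MYCN) had an end peak, with pileups of 39 to 96. Of the markers of other cells, COL1A1 (pileup 16) of 3 fibroblast genes had one, and neither of the 2 blood genes did. Their part in the results was not tested.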

How the data were processed

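Poly(A) 3′-sequencing (QuantSeq 3′ REV) was performed in 8 samples. According to the methods of the study and the submitters' processing notes, the authors trimmed reads with BBDuk, mapped them with STAR (2.5.1b) to GRCh38 plus ERCC sequences, merged the BAM files and called peaks with MACS2 (2.1.1) on reads extended to 100 bp. The deposited list gives, as the authors' values, a fold enrichment, a −log10 p, a −log10 q and a score per peak. It has 0 columns of per-sample values. Coverage tracks were not used here. Pileup and background were recovered from fold and p (tolerance 0.002). Peaks were annotated with GENCODE release 44 basic transcripts. An end peak overlapped 200 bp before to 600 bp after a transcript end. Of 153021 peaks on the autosomes, X and Y, 144337 were retained. Scripts used Python 3.11.15, numpy 2.4.6 and pandas 2.3.3, and were tested on simulated data. No test was run, since nothing is replicated. Shares carry 95% Wilson intervals, which cover counting error only, and reads carry no molecular identifiers. The members and gene lists were chosen with earlier results of these data known. Named genes are the 3 members, genes overlapping them and, per list, the 3 genes with the most clean intronic peaks. Others named are exceptions, chosen after their values were seen. Alternatives covered the q threshold, windows, motifs, A-rich rule and pileup measure. A few genes of the lists and 1 sequence are not reported here, and the counts given leave them out.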

Additional observations from a re-analysis of the deposited data

How the results depend on the processing

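Of 70 alternative values for 21 results, 52 stayed within the limits set for a count or a share, 18 moved and 0 reversed. These limits were wide, so a value within them need not be stable. The TARDBP peaks fell from 10 to 7 at a −log10 q of at least 5 and were still within them. So were its end peaks, which fell from 3 to 2 with a window of 100 bp before and after an end. With only peaks of −log10 q of at least 10, TARDBP kept 4 peaks (10 before), STMN2 6 (13) and UNC13A 9 (18), with 2 peaks in the first intron of STMN2 (7) and 7 intronic peaks in UNC13A (16). The number of clean intronic peaks depended on the A-rich rule: with the stretch of 25 A it was 9 in UNC13A (2 before) and 7 in STMN2 (3), and with A-rich sequence before or after the end it was 1 in each. It was also 1 in UNC13A with AATAAA and ATTAAA only, and with AATAAA or ATTAAA at 10 to 35 bp. STMN2 peak 4 and TARDBP peak 2 were clean under both A-rich rules. TARDBP exceeded its bin median by 1 intronic peak, by 3 when peaks were assigned by summit and by 2 over all protein-coding genes. TGTGTG was near 4 peaks within 250 bp, near 2 within 100 bp, inside 2, and near 0 as 5 TG in a row. With fold enrichment in place of pileup, the share at TARDBP peak 2 among all TARDBP peaks was 21.6% (15.7% by pileup) and that at STMN2 peak 4 was 12.5% (16.3%). The alternatives on A-rich sequence before the end, on the summit, on signal position, on repeats inside peaks and, for STMN2, on motif and stretch were chosen after seeing the data. No paired analysis was possible because the libraries were merged before peak calling, and leaving out a replicate was not possible for the same reason.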
